A study of Homo sapiens with 9 samples.

Results

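The rows described here are the chromosome 9 rows of an expression array, with attention to the genes that lie beside STOML2 on its short arm. STOML2 encodes stomatin-like protein 2 (SLP-2) and was the target of both short hairpin RNAs of the study. A row was taken when its identifier began with TC09, which gave 822 of the 21448 rows of the table. Of these, 711 carried 1 gene symbol and a position in the RefSeq annotation of GRCh38.p14, 193 on the short arm and 518 on the long arm, and 111 carried no symbol. A further condition used the signal itself, namely a mean over the 9 arrays above the median of all row means (6.61 on the log2 scale). It kept 367 of the named rows. Members were thus chosen by place and by mean signal, and the neighbourhood was taken up because its lower signals were already known. The neighbours of STOML2 are the 40 rows of the short arm nearest to it by gene start among these, from APTX on the telomere side to FBXO10 on the centromere side. The other 326 rows, 45 on the short arm and 281 on the long arm, are called the rest of the chromosome, and STOML2 itself is in neither set.

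RNA came from AsPC-1, an established human pancreatic cancer cell line. One line carried shRNA-1 of SLP-2 in the plasmid pBAsi-hU6 NEO (sh1), another carried shRNA-2 of SLP-2 in that plasmid (sh2), and the control line carried the blank plasmid, with 3 arrays for each line. The plasmid name gives a U6 promoter and a neomycin resistance gene, and every line, the control included, went through 3 weeks of Geneticin selection before a single colony was picked and cultured. Each line is therefore 1 clone, the hairpin and the clone cannot be told apart, and no label says that its arrays are separate cultures, so that p-values reflect array-to-array spread, which may be technical. The array medians lay between 6.57 and 6.65, arrays of a line correlated at 0.994 to 0.996 over all rows and arrays of different lines at 0.982 to 0.988. Of 8 pancreatic epithelial markers, 7 were above the median signal in every line and CEACAM6 was not (5.80 in sh1, 5.85 in sh2 and 5.61 in the control). None of the 3 measured leukocyte markers and none of the 3 endothelial markers reached the median in any line. The lines differed in several markers of either kind. EPCAM averaged 13.88 in sh1 and 9.68 in sh2, against 8.94 in the control. KRT8 (16.91 and 16.90, against 16.20) and KRT18 (14.59 and 14.64, against 13.38) were also higher in both lines. KRT19 was lower in both (14.50 and 15.62, against 16.19). CDH1 was higher in sh1 and lower in sh2 (10.74 and 8.19, against 8.71). Of 6 mesenchymal markers, VIM and COL1A2 were above the median in every line and FN1 in none. CDH2 averaged 6.81 in sh1 and 5.84 in sh2, against 11.92 in the control, COL1A1 6.65 and 6.36, against 9.84, and SPARC 11.17 and 11.06, against 4.0. Whether these differences between the lines bear on the values below was not tested.

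Genes that lie side by side on a chromosome need not share a function. The short arm around STOML2 holds genes of protein quality control, RNA processing, glycan synthesis, the cytoskeleton, vesicle traffic and mitochondria. It also holds chemokine genes, and towards the telomere the tumour suppressor genes CDKN2A and CDKN2B. SLP-2 itself is a scaffold protein of the mitochondrial inner membrane. A short hairpin RNA is processed to a guide that directs the cleavage of transcripts with a matching sequence. In a bulk RNA sample, fewer cells that express a gene and less of its RNA per cell give the same lower signal and cannot be told apart.

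The promoter sequences below, from RefSeq on GRCh38.p14, run from 250 bases before to 50 bases after each gene's start and are printed 5′ to 3′ on the gene's own strand. They are shown for STOML2 and for UNC13B, TPM2, NUDT2 and BAG1, which are among the neighbours with the largest falls in both lines. CHMP5, which starts head to head with BAG1, is added, as are PIGO and GNE from the neighbours on which the lines differed. Capitals mark 4 motifs found on either strand, the GC box GGGCGG, the CCAAT box CCAAT, an ETS motif CCGGAAG and the TATA box TATAAA.
STOML2, chr9:35103146-35103445, minus strand: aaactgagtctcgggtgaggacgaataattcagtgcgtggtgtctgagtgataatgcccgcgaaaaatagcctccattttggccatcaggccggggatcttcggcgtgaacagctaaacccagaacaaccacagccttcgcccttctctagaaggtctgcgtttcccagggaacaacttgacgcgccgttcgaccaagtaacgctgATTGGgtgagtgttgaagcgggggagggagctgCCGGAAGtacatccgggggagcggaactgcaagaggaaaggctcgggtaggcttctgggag
UNC13B, chr9:35161759-35162058, plus strand: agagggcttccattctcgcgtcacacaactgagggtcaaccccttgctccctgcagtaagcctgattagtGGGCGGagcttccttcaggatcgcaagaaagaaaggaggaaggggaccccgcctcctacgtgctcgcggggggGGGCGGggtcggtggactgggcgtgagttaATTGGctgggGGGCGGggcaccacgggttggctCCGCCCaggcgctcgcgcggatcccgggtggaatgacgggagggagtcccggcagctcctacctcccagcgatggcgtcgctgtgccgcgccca
TPM2, chr9:35690007-35690306, minus strand: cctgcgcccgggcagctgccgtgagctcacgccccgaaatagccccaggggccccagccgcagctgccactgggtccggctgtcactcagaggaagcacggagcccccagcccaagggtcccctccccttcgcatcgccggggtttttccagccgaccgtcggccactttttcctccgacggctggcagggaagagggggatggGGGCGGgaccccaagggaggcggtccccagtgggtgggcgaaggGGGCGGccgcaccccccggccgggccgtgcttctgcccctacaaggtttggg
NUDT2, chr9:34329319-34329618, plus strand: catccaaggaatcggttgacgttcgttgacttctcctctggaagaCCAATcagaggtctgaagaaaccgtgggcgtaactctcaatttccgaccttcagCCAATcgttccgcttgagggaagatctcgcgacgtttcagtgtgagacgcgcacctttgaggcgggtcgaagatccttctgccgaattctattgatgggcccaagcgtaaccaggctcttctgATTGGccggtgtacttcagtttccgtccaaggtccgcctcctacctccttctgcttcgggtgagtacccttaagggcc
BAG1, chr9:33264659-33264958, minus strand: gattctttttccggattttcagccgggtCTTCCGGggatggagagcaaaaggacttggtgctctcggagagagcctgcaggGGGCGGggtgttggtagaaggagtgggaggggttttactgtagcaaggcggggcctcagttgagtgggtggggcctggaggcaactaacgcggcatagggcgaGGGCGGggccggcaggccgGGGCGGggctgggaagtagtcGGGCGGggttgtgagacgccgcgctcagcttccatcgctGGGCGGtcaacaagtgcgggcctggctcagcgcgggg
CHMP5, chr9:33264799-33265098, plus strand: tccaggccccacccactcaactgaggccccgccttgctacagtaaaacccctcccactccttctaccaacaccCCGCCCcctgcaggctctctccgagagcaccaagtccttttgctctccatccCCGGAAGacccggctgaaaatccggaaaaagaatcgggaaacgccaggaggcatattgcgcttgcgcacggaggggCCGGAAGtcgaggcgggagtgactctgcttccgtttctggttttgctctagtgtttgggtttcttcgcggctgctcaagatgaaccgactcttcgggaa
PIGO, chr9:35096542-35096841, minus strand: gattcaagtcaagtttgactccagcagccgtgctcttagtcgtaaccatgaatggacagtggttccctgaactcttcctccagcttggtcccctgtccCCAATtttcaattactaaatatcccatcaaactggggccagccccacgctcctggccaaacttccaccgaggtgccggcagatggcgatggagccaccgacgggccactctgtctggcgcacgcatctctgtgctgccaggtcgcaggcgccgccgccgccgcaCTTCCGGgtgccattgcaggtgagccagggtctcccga
GNE, chr9:36276929-36277228, minus strand: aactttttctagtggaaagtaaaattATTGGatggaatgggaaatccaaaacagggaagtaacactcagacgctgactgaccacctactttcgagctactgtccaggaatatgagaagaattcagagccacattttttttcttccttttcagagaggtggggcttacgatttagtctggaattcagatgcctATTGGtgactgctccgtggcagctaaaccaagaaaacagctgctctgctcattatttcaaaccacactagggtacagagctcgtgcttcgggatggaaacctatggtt

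The table of promoters held an entry for 35 of the 40 neighbours. A GC box was found in 28 of these 35, against 75.9% of the promoters of the rest of the chromosome and 44.6% of all 27305 promoters. The shares with a CCAAT box were 37.1% in the neighbours, 35.4% in the rest of the chromosome and 35.7% of all promoters. The ETS motif was in 31.4% of neighbour promoters, 21% in the rest of the chromosome and 10.7% of all. No neighbour promoter held the TATA box, which 5.15% of the rest of the chromosome and 12% of all promoters held. The median GC content was 66.7% in the neighbours, 68.7% in the rest of the chromosome and 58.3% over all promoters. A match describes the letters of the window and is not a binding site. STOML2's own window held 1 CCAAT box and 1 ETS motif and no GC box. Promoter windows overlapped head to head in 3 pairs of neighbours, APTX with DNAJA1 (252 bases), BAG1 with CHMP5 (160 bases) and GBA2 with RGP1 (158 bases), so motifs in the shared part were counted in both genes.

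STOML2 was measured first, as the gene that both hairpins target. Its log2 signals were 8.36, 8.42 and 8.18 in sh1 and 7.85, 7.99 and 7.35 in sh2, against 13.7, 13.66 and 13.65 in the control. The arrays of both lines lay below every control array and above the lower quartile of the row means (4.21), a level used here to mark dim signals, since detection calls were not used. The differences were -5.35 ± 0.16 (SE) in sh1 and -5.94 ± 0.16 in sh2 (limma, adjusted p = 2.31e-09 and 1.63e-09). No other row of chromosome 9 fell as far in either line. The next largest falls were those of COL5A1 in sh1 (-2.74) and of MAMDC2 in sh2 (-3.50).

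Most neighbours of STOML2 were lower in both shRNA lines than in the control, by differences much smaller than that of STOML2. The median difference of the 40 neighbours was -0.51 in sh1 and -0.44 in sh2, against 0.05 and 0.04 in the rest of the chromosome and 0.04 and 0.03 over all rows of the table above the median signal. Differences were negative for 36 of 40 neighbours in each line, and for 34 of them in both. They were negative for 45.7% of all rows above the median in sh1 and for 46.9% in sh2. In sh1, 23 of the 40 were called lower at an adjusted p under 0.05 and 0 higher. Of all rows in the data, 9.0% were called lower and 9.76% higher in sh1, and of those above the median signal 14.3% lower and 15.7% higher. In sh2, 21 were called lower and 0 higher, where 7.98% of all rows were called lower and 8.33% higher, and of those above the median 12.9% lower and 13.6% higher. In the rest of the chromosome, 23 of 326 were called lower and 33 higher in sh1, and 29 lower and 34 higher in sh2. Both comparisons use the same 3 control arrays, so their calls are not independent of each other. Without control array 1 or without control array 3 the calls in sh1 numbered 14.

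**Figure D1:**
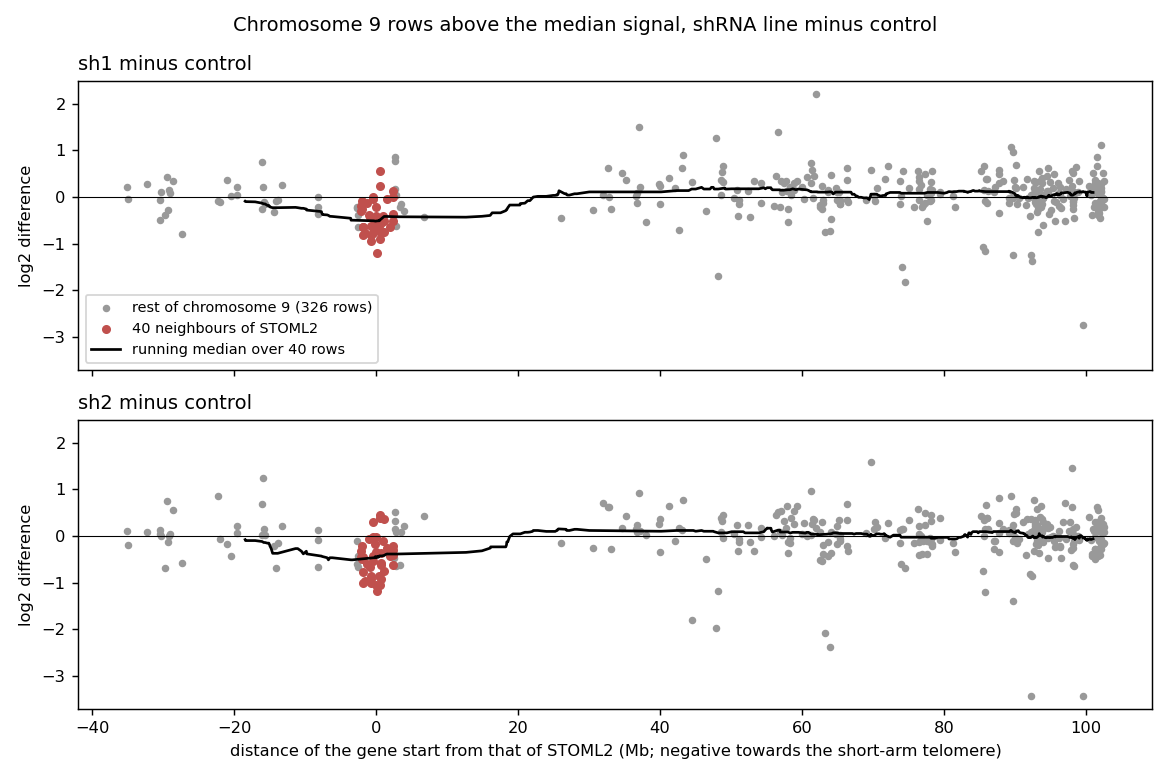
Log2 difference of each shRNA line from the control (vertical axis) for the chromosome 9 rows above the median signal, without STOML2, by distance of the gene start from that of STOML2 in Mb. The 40 neighbours are in red, the 326 other rows in grey, and the black line is the running median over 40 consecutive rows, which is lowest over windows that include the STOML2 region (-0.52 in sh1, and -0.51 in sh2 where the lowest windows are centred on its telomere side).

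The same pattern was present in each array. With every row centred on its mean over the 9 arrays, the median of the neighbours was -0.10, -0.13 and -0.14 in the sh1 arrays and -0.08, -0.21 and -0.24 in the sh2 arrays, against 0.34, 0.29 and 0.33 in the control arrays. The 6 shRNA arrays therefore lay below the 3 control arrays without overlap, and sh2 array 1 was the closest of them to the control. The medians of the rest of the chromosome lay between -0.04 and 0.04 in the 9 arrays. Those of the other 45 short-arm rows lay between -0.04 and 0.09. The set was chosen with these differences known, so these values describe it and no test of it is given.

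**Figure D2:**
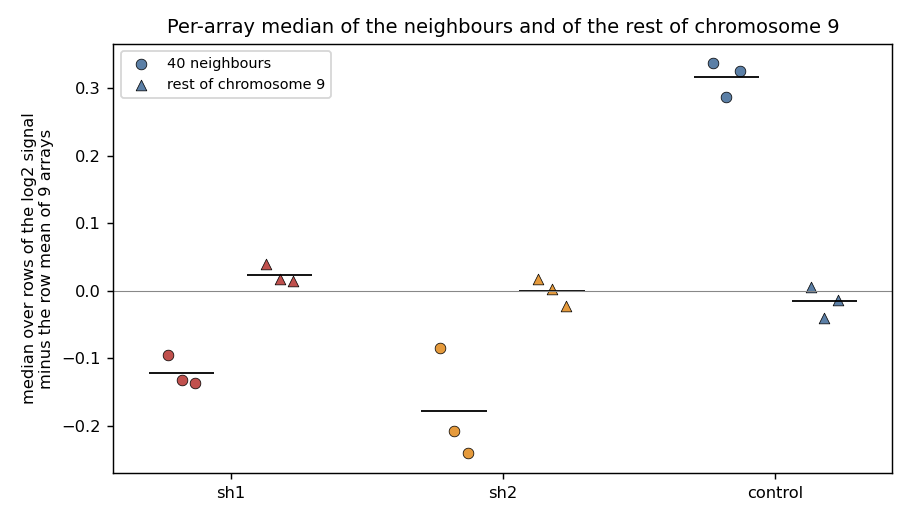
Median over rows of the log2 signal minus the row's mean of 9 arrays (vertical axis), for the 40 neighbours (circles) and the rest of chromosome 9 (triangles) in each array of sh1, sh2 and the control, with lines at the group means. The neighbours averaged -0.12 in sh1, -0.18 in sh2 and 0.32 in the control, while the rest of the chromosome stayed within 0.04 of 0.

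Of the 40 neighbours, 15 were called lower in both lines, 8 in sh1 and not in sh2, 6 in sh2 and not in sh1, and 11 in neither. Over the whole table above the median signal 7.48% of rows were called lower in both lines, and in the rest of the chromosome 3.99%. None of the 40 was called higher in either line in the main fit. Arrays did not overlap with the control, on the lower side, for 30 neighbours in sh1 and 27 in sh2. The shares of all rows for which that was so were 16.4% in sh1 and 15.4% in sh2, and 23.9% and 22.6% among rows above the median. Falls of at least 2-fold were called for 1 of the 40 neighbours in sh1 and 4 in sh2. Among all 10723 rows above the median, 515 had such a fall in sh1 and 387 in sh2.

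The neighbours with the largest falls in both lines were UNC13B, NUDT2, TPM2, MYORG, BAG1 and NOL6. UNC13B, a vesicle priming protein second nearest to STOML2 among the neighbours on the centromere side, had signals of 9.79, 9.65 and 9.48 in sh1 and 9.55, 10.05 and 9.37 in sh2, against 10.76, 10.9 and 10.83 in the control. It changed by -1.19 ± 0.17 (SE) in sh1 and by -1.17 ± 0.17 in sh2 (limma, adjusted p = 0.000505 and 0.00067), with no overlap of the arrays. TPM2, a tropomyosin of actin filaments, had 13.98, 13.93 and 14.06 in sh1 and 13.93, 13.84 and 13.74 in sh2, against 14.94, 14.85 and 14.86 in the control. The 6 shRNA arrays of TPM2 lay below every control array (-0.89 ± 0.12 and -1.05 ± 0.12, adjusted p = 0.000229 and 8.91e-05). NUDT2, a hydrolase of diadenosine tetraphosphate, had 9.55, 9.10 and 9.27 in sh1 and 9.54, 9.40 and 9.03 in sh2, against 10.39, 10.25 and 10.1 in the control. Its arrays did not overlap with the control in either line (-0.94 ± 0.17 and -0.92 ± 0.17, adjusted p = 0.00215 and 0.0029), and the sh2 minus sh1 difference was 0.02 (adjusted p = 0.968).

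MYORG, a glycosidase beside NUDT2, was dimmer, at 7.26, 7.12 and 7.0 in sh1 and 7.08, 7.03 and 6.74 in sh2, against 8.15, 7.81 and 7.88 in the control. It fell by 0.82 in the sh1 line and by 1.00 in the sh2 line (adjusted p = 0.00208 and 0.00067). BAG1, a co-chaperone that releases nucleotide from HSP70, had 7.74, 7.54 and 7.75 in sh1 and 7.36, 7.27 and 7.79 in sh2, against 8.40, 8.43 and 8.63 in the control. BAG1 fell by 0.81 and by 1.01 (adjusted p = 0.00335 and 0.000919), and CHMP5, an ESCRT-III protein whose gene starts head to head with it, fell by 0.64 and by 0.44 (adjusted p = 0.00257 and 0.0251). GBA2 and RGP1, another head-to-head pair, also fell in both lines (RGP1 by 0.48 and by 0.62, adjusted p = 0.0275 and 0.00882). NOL6, a nucleolar protein of ribosomal RNA processing, changed by -0.78 and -0.96 (adjusted p = 0.0301 and 0.0119). The NOL6 call in sh1 was lost without control array 1, control array 3, sh1 array 1 or sh1 array 2, and that in sh2 without control array 3 or sh2 array 2.

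**Figure D3:**
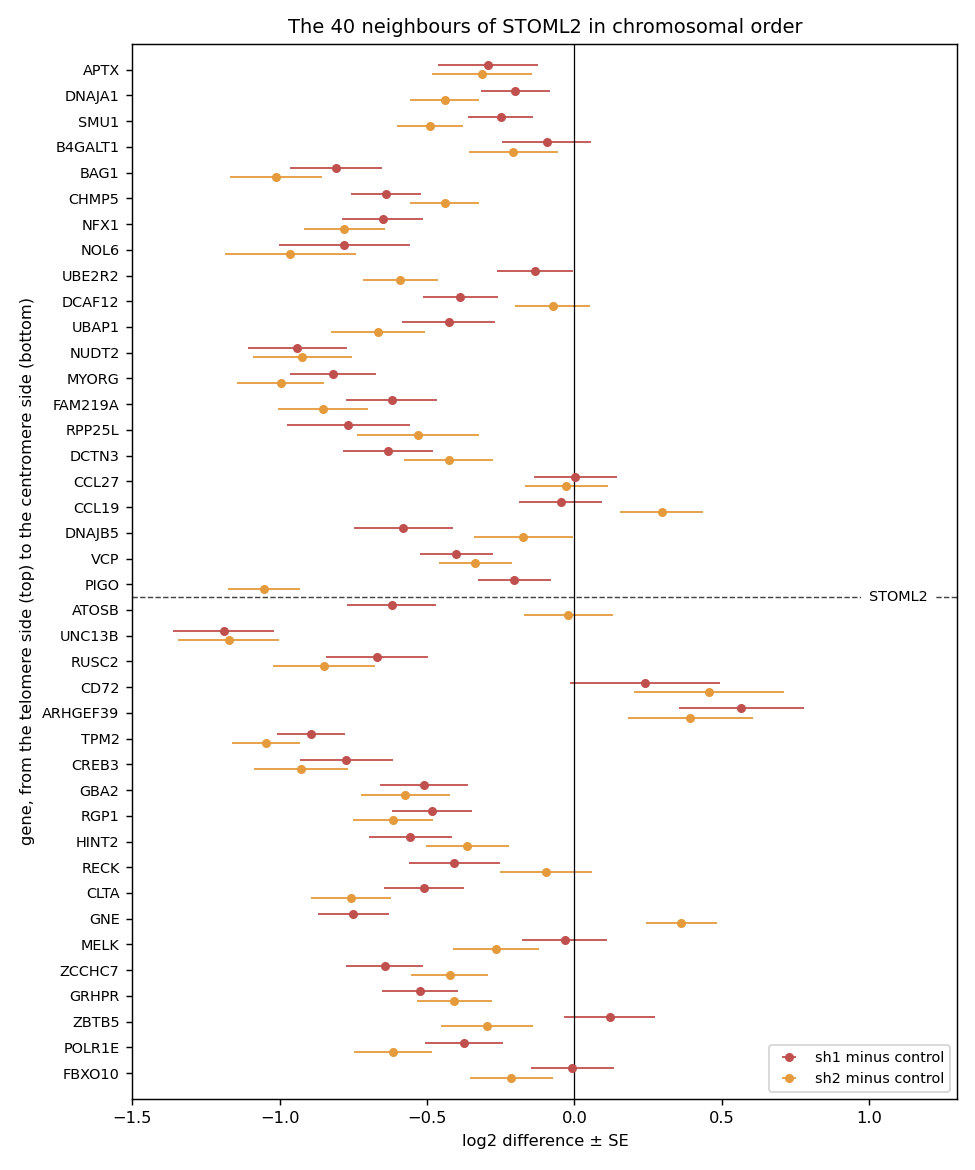
Log2 difference from the control with its standard error (horizontal axis) for each of the 40 neighbours in chromosomal order, sh1 in red and sh2 in orange, with the place of STOML2 marked by the dashed line. In each line 36 of the 40 points lie left of 0, with a median of -0.51 in sh1 and -0.44 in sh2, and UNC13B lies farthest left in both.

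Among the genes of protein quality control and ubiquitin on the short arm, 10 of 13 listed were measured. In sh1 the calls were VCP, DNAJB5 and CREB3 lower and DCAF10 higher, and in sh2 DNAJA1, UBAP1, UBE2R2 and CREB3 lower and 0 higher (median difference -0.38 in both lines). Over all rows, 9.0% were called lower and 9.76% higher in sh1, and 7.98% and 8.33% in sh2. Of rows above the median signal, as all 10 were, 14.3% were called lower and 15.7% higher in sh1, and 12.9% and 13.6% in sh2. Those called lower here are all neighbours of STOML2, of which 57.5% were called lower in sh1 and 52.5% in sh2. CREB3, a transcription factor held in the endoplasmic reticulum membrane, was the member called in both lines. It had 10.99, 10.97 and 10.73 in sh1 and 11, 10.82 and 10.41 in sh2, against 11.73, 11.63 and 11.65 in the control, and changed by -0.77 and -0.93 (adjusted p = 0.00506 and 0.00196). VCP, the AAA ATPase that extracts ubiquitinated proteins and the second nearest neighbour of STOML2 on the telomere side, had 15.38, 15.25 and 15.41 in sh1 and 15.49, 15.48 and 15.26 in sh2, against 15.71, 15.84 and 15.69 in the control. All 6 shRNA arrays were below the control arrays, yet the difference passed in sh1 alone (-0.40, adjusted p = 0.0432, and -0.34, adjusted p = 0.0938 in sh2), and the sh1 call was lost when any of 7 of the 9 arrays was left out. DNAJB5, a co-chaperone, was called in sh1 (-0.58, adjusted p = 0.0316) and UBAP1, a subunit of ESCRT-I, in sh2 (-0.67, adjusted p = 0.0138), and these calls were lost in 4 and 2 of the 9 fits that left out an array. DCAF12, an adaptor of the CUL4 ubiquitin ligase, differed by -0.39 and -0.07 (adjusted p = 0.0579 and 0.778). DCAF10, another such adaptor, lies beyond the neighbours on the centromere side and rose by 0.76 in sh1 (adjusted p = 0.000518).

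Of 13 genes on a list for RNA processing and export, 12 were measured. NOL6, RPP25L, NFX1 and ZCCHC7 were called lower in sh1, and NOL6, SMU1, RIGI, POLR1E, NFX1 and ZCCHC7 in sh2. NFX1 and RIGI are on the list but are not known mainly as RNA processing or export genes. EXOSC3, a subunit of the RNA exosome, was called higher in both. The median difference of the list was -0.31 in sh1 and -0.46 in sh2. Over all rows, 9.0% were called lower and 9.76% higher in sh1, and 7.98% and 8.33% in sh2. Of rows above the median signal, as all 12 were, 14.3% were called lower and 15.7% higher in sh1, and 12.9% and 13.6% in sh2. Except for RIGI, the members called lower are neighbours of STOML2, of which 57.5% were called lower in sh1 and 52.5% in sh2. NFX1, a zinc finger protein, had 12.02, 12.27 and 12 in sh1 and 11.85, 11.96 and 12.09 in sh2, against 12.7, 12.62 and 12.92 in the control, a fall of 0.65 ± 0.14 (SE) in sh1 and of 0.78 ± 0.14 in sh2 (adjusted p = 0.00602 and 0.00232). EXOSC3 lies just beyond the neighbours, 3 rows past FBXO10 on the centromere side. It had 8.60, 8.93 and 8.92 in sh1 and 8.55, 8.32 and 8.59 in sh2, against 7.79, 8.09 and 8.0 in the control, above every control array in both lines (0.86 and 0.53, adjusted p = 0.00149 and 0.0285), and the sh2 call was lost in 4 of the 9 fits that left out an array. ZCCHC7, a component of the TRAMP complex that feeds RNA to the exosome, changed by -0.64 and -0.42 (adjusted p = 0.00485 and 0.0483), and its sh2 call was lost when any of 8 of the 9 arrays was left out.

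Of 10 measured cytoskeleton, adhesion and vesicle coat genes of the short arm, 6 fell in each line and 0 rose. Over all rows, 9.0% were called lower in sh1 and 7.98% in sh2. Among rows above the median signal, as 8 of the 10 were, the shares were 14.3% and 12.9%. Of these 10, 7 are neighbours of STOML2, of which 57.5% were called lower in sh1 and 52.5% in sh2. The median differences of the list were -0.57 in sh1 and -0.70 in sh2. UNC13B, TPM2, SHB, RUSC2 and CLTA fell in both, DCTN3 in sh1 and KIF24, which is below the median signal, in sh2. CLTA, a clathrin light chain, had 13.38, 13.04 and 13.3 in sh1 and 13.15, 12.93 and 12.9 in sh2, against 13.66, 13.84 and 13.75 in the control (-0.51 and -0.76, adjusted p = 0.0218 and 0.00267). RUSC2, a trafficking adaptor, changed by -0.67 and -0.85 (adjusted p = 0.0185 and 0.00572), and its sh1 call was lost in 3 of the 9 fits that left out an array. SHB, an SH2 adaptor protein beyond the neighbours on the centromere side, changed by -0.62 and -0.65 (adjusted p = 0.0147 and 0.0139), and each SHB call was lost in 3 of the 9 fits that left out an array. RECK, a membrane inhibitor of matrix metalloproteinases, differed by -0.41 in the sh1 line and -0.10 in the sh2 line (adjusted p = 0.0974 and 0.758).

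Among 8 measured mitochondrial genes of the short arm other than STOML2, NDUFB6, HINT2, NUDT2 and GRHPR fell in sh1 and NDUFB6, TOMM5, ALDH1B1 and NUDT2 in sh2, where GLDC rose. The 4 of 8 called lower in each line lie above the 9.0% and 7.98% of all rows. They also lie above the 14.3% and 12.9% of rows above the median signal, as 7 of the 8 were. They do not lie above the 57.5% and 52.5% of the neighbours. The medians of the list were -0.46 and -0.44. NDUFB6, a subunit of respiratory complex I and the second row outside the neighbours, had 11.2, 11.16 and 11.32 in sh1 and 11.32, 11.12 and 11.22 in sh2, against 11.83, 11.88 and 11.91 in the control. Every shRNA array lay below the control arrays (-0.65 and -0.65, adjusted p = 0.00236 and 0.00269). TOMM5, a subunit of the outer membrane translocase, differed by -0.39 in the sh1 line and -0.47 in the sh2 line (adjusted p = 0.0582 and 0.0282). GLDC, the glycine decarboxylase nearer the telomere, differed by 0.18 in the sh1 line and 0.70 in the sh2 line (adjusted p = 0.636 and 0.040), a call lost when any of 7 arrays was left out.

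Of 12 glycosylation, sugar and lipid enzymes of the short arm, GNE, GBA2 and GRHPR were called lower and 0 higher in sh1, and PIGO, GBA2 and ALDH1B1 lower with GLDC and PLIN2 higher in sh2 (median -0.20 and -0.01). Over all rows, 9.0% were called lower and 9.76% higher in sh1, and 7.98% and 8.33% in sh2. Of rows above the median signal, as 9 of the 12 were, 14.3% were called lower and 15.7% higher in sh1, and 12.9% and 13.6% in sh2. Except for ALDH1B1, the enzymes called lower are neighbours of STOML2, of which 57.5% were called lower in sh1 and 52.5% in sh2. GBA2, a non-lysosomal glucosylceramidase, fell by 0.51 in the sh1 line and by 0.57 in the sh2 line (adjusted p = 0.0348 and 0.0225), calls that were lost in 5 and 4 of the 9 fits that left out an array. B4GALT1, a galactosyltransferase, differed by -0.09 and -0.21 (adjusted p = 0.75 and 0.429). Members of the DNA repair and cell division list were mostly not called, with DCTN3, a dynactin subunit, lower in sh1 (-0.63, adjusted p = 0.0123, a call lost without control array 3 or sh1 array 3) and HAUS6, an augmin subunit far towards the telomere, higher in both (0.76 and 0.69, adjusted p = 0.0019 and 0.00396). APTX, an end-processing enzyme of DNA strand break repair, differed by -0.29 and -0.31 (adjusted p = 0.284 and 0.264), and the mitotic kinase MELK by -0.03 and -0.27 (adjusted p = 0.918 and 0.269).

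FAM219A, which is on no list, had 8.41, 8.2 and 8.42 in sh1 and 8.41, 8.02 and 7.9 in sh2, against 9.07, 8.98 and 8.84 in the control (-0.62 and -0.85, adjusted p = 0.0144 and 0.00261). HINT2, a mitochondrial hydrolase of the histidine triad family, changed by -0.56 in sh1 (adjusted p = 0.0158) and differed by -0.36 in sh2 (adjusted p = 0.11). A few neighbours did not share the lower level. ARHGEF39 had 9.14, 8.83 and 9.45 in sh1 and 9.32, 8.93 and 8.65 in sh2, against 8.89, 8.45 and 8.38 in the control, with overlapping arrays (0.57 and 0.39, adjusted p = 0.0924 and 0.267). CD72, a B-cell coreceptor, had 6.64, 6.62 and 6.68 in sh1 and 6.76, 6.32 and 7.51 in sh2, against 6.33, 6.74 and 6.15 in the control (0.24 and 0.46, adjusted p = 0.60 and 0.284). The chemokine CCL19 differed by -0.05 and 0.30 (adjusted p = 0.874 and 0.197) and the chemokine CCL27 by 0.00 and -0.03 (adjusted p = 0.992 and 0.936). The signals of CD72, CCL19 and CCL27 were close to the median that set the inclusion. ZBTB5, a zinc finger protein, differed by 0.12 and -0.30 (adjusted p = 0.676 and 0.246). The neighbours with a positive difference in a line were thus CCL19, CCL27, CD72, ARHGEF39, GNE and ZBTB5, and none passed as higher in the main fit.

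The lines differed from each other at 4 of the 40 neighbours (10%), PIGO, ATOSB, GNE and UBE2R2, where 11.3% of all rows and 17.9% of those above the median were called in sh2 minus sh1. Of all rows 5.57% were called lower and 5.73% higher in that comparison, and of those above the median 8.64% and 9.29%. GNE, the bifunctional enzyme that starts sialic acid synthesis, had 11.97, 12.04 and 12.01 in sh2 and 10.93, 10.8 and 10.95 in sh1, beside 11.58, 11.56 and 11.79 in the control. The sh2 arrays were above and the sh1 arrays below every control array, and the sh2 minus sh1 difference was 1.11 ± 0.12 (SE, limma, adjusted p = 8.73e-05). Against the control, GNE differed by 0.36 in sh2 (adjusted p = 0.0638) and fell by 0.75 in sh1 (adjusted p = 0.00103). PIGO, an enzyme of glycosylphosphatidylinositol anchor synthesis and the nearest neighbour on the telomere side, had 10.24, 10.13 and 10.05 in sh2 and 10.91, 11.03 and 11.03 in sh1, beside 11.1, 11.14 and 11.34 in the control. It was lower in sh2 (-1.05, adjusted p = 0.000133), differed by -0.20 in sh1 (adjusted p = 0.314), and the lines differed by -0.85 ± 0.12 (adjusted p = 0.000833).

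ATOSB, the nearest neighbour on the centromere side, went the other way, with 9.09, 8.84 and 8.95 in sh2 and 8.12, 8.48 and 8.48 in sh1, beside 8.95, 8.80 and 9.19 in the control. The sh2 arrays overlapped the control and the sh1 arrays lay below it. It changed by -0.62 in sh1 (adjusted p = 0.014) and differed by -0.02 in sh2 (adjusted p = 0.956), and the sh2 minus sh1 difference of 0.60 ± 0.15 (adjusted p = 0.0254) was lost without sh1 array 1, sh2 array 1 or sh2 array 3. UBE2R2, a ubiquitin-conjugating enzyme, had an sh2 minus sh1 difference of -0.46 (adjusted p = 0.0409), which was lost when any of 8 of the 9 arrays was left out. The genes on either side of STOML2, PIGO and ATOSB, were thus called in 1 line each, and not in the same one. The ATOSB call in sh1 was lost without control array 3 or sh1 array 1. The median sh2 minus sh1 difference of the 40 neighbours was -0.12, against -0.04 in the rest of the chromosome.

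**Figure D4:**
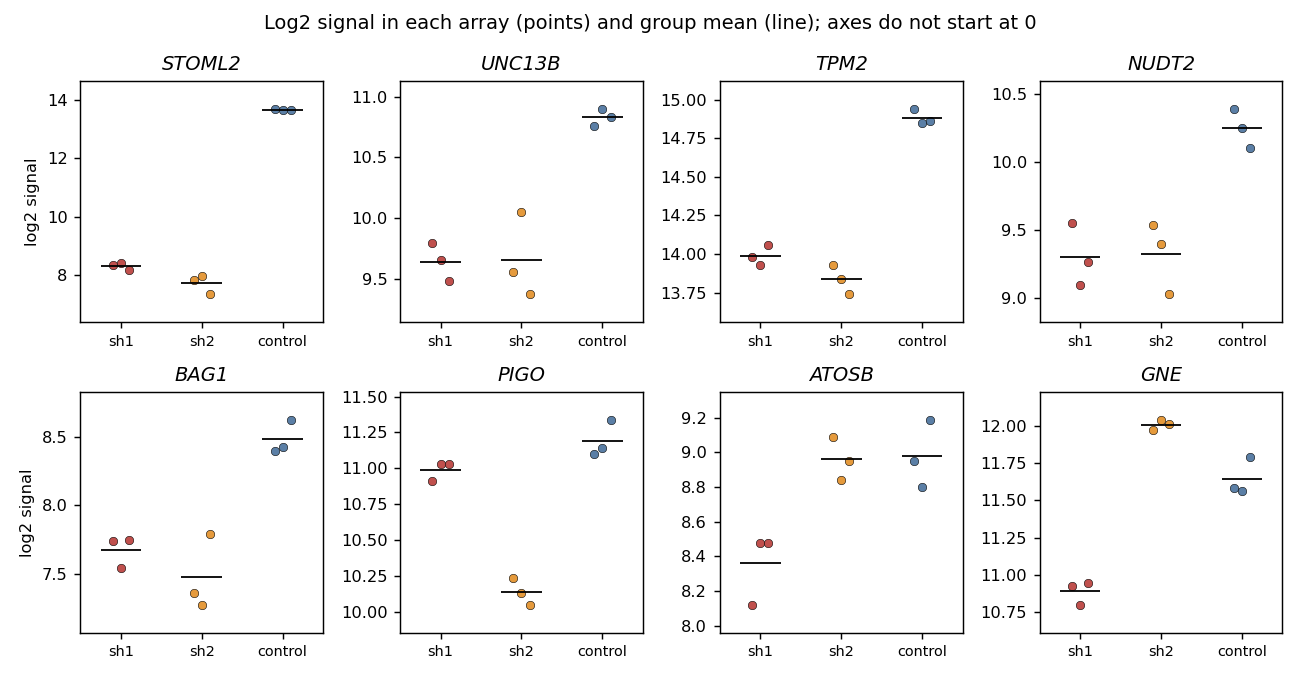
Log2 signal (vertical axes, which do not start at 0) of STOML2 and 7 neighbours in each array of sh1, sh2 and the control, with lines at the group means. UNC13B, TPM2, NUDT2 and BAG1 lie below the control in both lines, PIGO is lowest in sh2, and ATOSB and GNE are lowest in sh1.

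Beyond the 40 neighbours fewer short-arm rows were called lower. Among the 20 rows nearest to STOML2, the median difference was -0.60 in sh1 and -0.55 in sh2, with 15 and 10 called lower. Among ranks 21 to 40 it was -0.40 and -0.43, with 8 and 11 called lower. The next 20 rows, ranks 41 to 60, had medians of -0.21 and -0.10, with 2 lower and 2 higher in sh1 and 7 lower and 1 higher in sh2. The 25 rows beyond, which reach the telomere, had medians of 0.02 and 0.04, with 2 called lower in each line and 1 and 4 higher. On the long arm the medians were 0.09 and 0.04, with 19 lower and 30 higher in sh1 and 20 lower and 29 higher in sh2. These bands differ in the number of rows and are a description of where the lower rows lie.

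**Figure D5:**
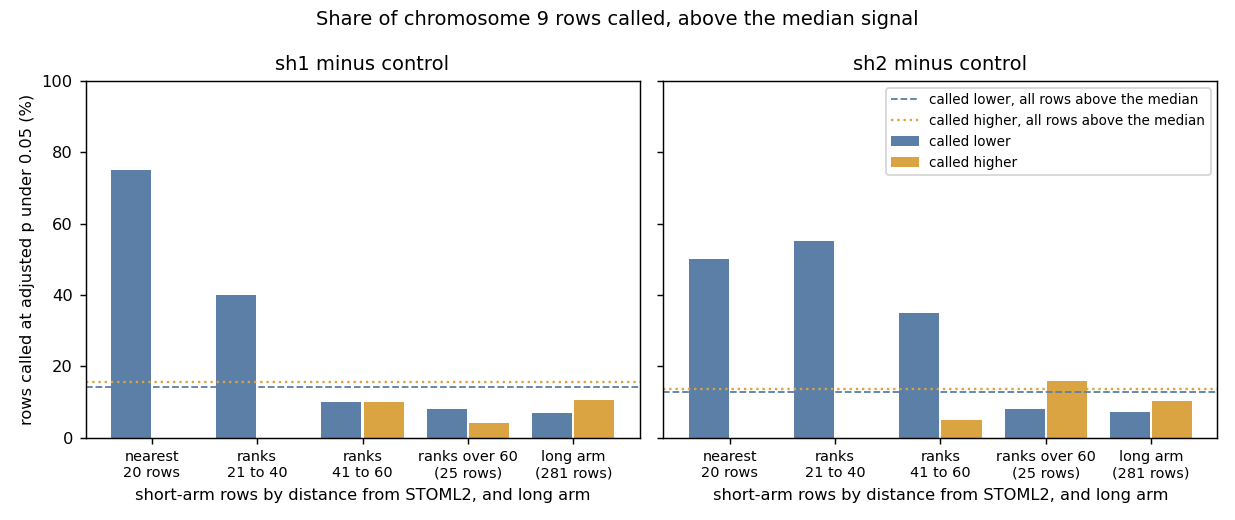
Share of rows called lower (blue) and higher (yellow) at an adjusted p under 0.05, in percent, for short-arm rows by rank of distance from STOML2 and for the long arm, sh1 on the left and sh2 on the right. Dashed and dotted lines give the shares over all rows of the table above the median signal (14.3% lower and 15.7% higher in sh1, 12.9% and 13.6% in sh2), and the first pair of bands lies above the share called lower in both panels, as do ranks 41 to 60 in sh2.

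Among named rows above the median signal, the longest unbroken stretch on the telomere side with a negative difference in both lines ran from PLAA to DCTN3. It held 22 rows. Rows at or below the median were passed over in these stretches. Of the 30 such named rows in the interval of the neighbours, 19 were negative and 11 positive in sh1, and 17 and 13 in sh2. The stretch from PLAA to DCTN3 crosses from outside the neighbours through ACO1, RIGI, TOPORS and NDUFB6 into them. No stretch on the long arm held more than 4 such rows. The running median over 40 consecutive rows was lowest from RIGI to GRHPR in sh1 (-0.52, 37 of 40 rows negative) and from HACD4 to RGP1 in sh2 (-0.51, 35 of 40). In sh1 the windows from TOPORS to ZBTB5 and from NDUFB6 to POLR1E had the same median. In sh2 so did those from CAAP1 to CLTA, PLAA to GNE and IFT74 to MELK. These sh2 windows all reach farther to the telomere side than the neighbours, whose own median was -0.44. On the long arm the same median ranged between -0.06 and 0.21 in sh1 and between -0.09 and 0.17 in sh2. Its highest windows there were PTAR1 to IARS1 in sh1, tied with others such as ABHD17B to ZNF484, and UBQLN1 to ZNF510 in sh2. On the centromere side the lower rows gave way between TOMM5 and TRMT10B. TRMT10B, a transfer RNA methyltransferase, differed by 0.18 and 0.15 (adjusted p = 0.445 and 0.553), EXOSC3 and DCAF10 had positive differences in both lines, and SLC25A51, the mitochondrial NAD carrier, differed by 0.05 and 0.08 (adjusted p = 0.862 and 0.774). SHB and ALDH1B1, farther along, had negative differences again, with ALDH1B1, an aldehyde dehydrogenase of mitochondria, at -0.20 in the sh1 line and -0.63 in the sh2 line (adjusted p = 0.419 and 0.0139, the sh2 call lost without control array 2 or sh2 array 2).

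Rows at or below the median signal were read separately. In the interval of the neighbours, 30 named rows had a mean at or below the median, and their median difference was -0.06 in sh1 and -0.02 in sh2, with 3 lower and 1 higher in sh1 and 1 lower and 1 higher in sh2. Of all rows of the table at or below the median, 3.7% were called lower and 3.8% higher in sh1, and 3.04% and 3.07% in sh2, so the 3 of 30 called lower in sh1 (10%) lie above that share. Outside the interval such rows had a median of -0.01 in each line. Just above the cut stood DNAJB5 (mean 6.62, differences -0.58 and -0.17) and CD72 (6.64, 0.24 and 0.46), and just below it KIF24 (6.60, -0.29 and -0.84) and GALT (6.58, -0.04 and 0.19). The last rows inside by distance were POLR1E (-0.37 and -0.62) and FBXO10 (-0.01 and -0.21), and the first outside were TOMM5 (-0.39 and -0.47) and NDUFB6 (-0.65 and -0.65). Whether differences near the background are compressed was not tested. Of the 111 rows with no symbol, the order of the identifiers placed 14 inside the interval and 7 of those were above the median. Of these 7, 3 were negative in sh1 and 7 in sh2 (median 0.08 and -0.30), with 3 called lower in each line. Among all rows above the median, 14.3% were called lower in sh1 and 12.9% in sh2.

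PRSS3, a trypsinogen gene inside the interval but below the median, was called in opposite directions. It had 5.22, 4.35 and 4.77 in sh1 and 7.38, 6.77 and 6.95 in sh2, against 5.73, 5.75 and 5.26 in the control. The sh1 arrays lay below and the sh2 arrays above the control (-0.80 and 1.45, adjusted p = 0.0331 and 0.00125), and the sh1 call was lost in 4 of the 9 fits that left out an array. PRSS3 has close copies elsewhere in the genome, so its row may hold signal from them. CNTFR, a cytokine receptor subunit in the same interval, rose by 1.00 in sh1 (adjusted p = 0.00125) and differed by 0.23 in sh2 (adjusted p = 0.412), from a control mean of 3.95 that was under the lower quartile.

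Farther towards the telomere lies the block around CDKN2A. Of its 9 genes 4 were above the median signal, and the median difference of the 9 was 0.00 in each line. CDKN2A, which encodes the cell cycle inhibitor p16, had 3.12, 2.97 and 3.27 in sh1 and 3.11, 2.97 and 3.22 in sh2, against 3.05, 3.12 and 3.12 in the control, so that every array was below the lower quartile given above. A fall of CDKN2A could not be seen at that level. CDKN2B, its neighbour and a related inhibitor, differed by 0.00 in sh1 and 0.00 in sh2 at a control mean of 5.54. MTAP, a methionine salvage enzyme, had 7.42, 7.12 and 7.80 in sh1 and 7.13, 7.76 and 7.34 in sh2, against 7.32, 7.0 and 7.27 in the control, with overlapping arrays. Of the 9 genes of this block, MLLT3, a subunit of the super elongation complex, was lower in both lines (-0.87 and -0.95, adjusted p = 0.00563 and 0.00404) and DMRTA1 higher in both (0.43 and 0.47, adjusted p = 0.0238 and 0.0179), with HACD4 lower in sh2 (-0.68, adjusted p = 0.0482). MLLT3 and DMRTA1 were not above the median signal. Over all rows, 9.0% were called lower and 9.76% higher in sh1, and 7.98% and 8.33% in sh2. The HACD4 call was lost when any of 7 arrays was left out, and those of DMRTA1 in 5 and 3 of the 9 fits. Of the 12 genes around JAK2 nearer the telomere, SMARCA2, a chromatin remodelling ATPase, and AK3, an adenylate kinase of the mitochondrial matrix, fell in sh1 (-1.16 and -0.49, adjusted p = 0.00771 and 0.0224), and 0 were called in sh2. SMARCA2 was not above the median signal. The AK3 call was lost in 4 of the 9 fits. The cytokine and immune ligand list of the short arm had 3 of 17 members above the median, and CNTFR in sh1 was its single call.

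On the long arm single genes changed by more than any neighbour of STOML2, in either direction. Among matrix and secreted proteins, COL5A1, TNC and PAPPA fell in both lines out of 17 measured, with CTSV and OMD higher in sh1. Of the 17, 3 were above the median signal, and TNC, PAPPA and OMD were not among them. Over all rows, 9.0% were called lower and 9.76% higher in sh1, and 7.98% and 8.33% in sh2. COL5A1, a collagen V chain, had 5.99, 5.98 and 5.80 in sh1 and 5.45, 4.84 and 5.43 in sh2, against 8.95, 8.32 and 8.71 in the control (-2.74 and -3.42, adjusted p = 2.59e-06 and 4.31e-07). TNC (tenascin C) changed by -2.33 and -1.69 (adjusted p = 7.99e-06 and 0.000115), and the metalloproteinase PAPPA by -1.56 and -1.38 (adjusted p = 0.000169 and 0.000503). Of 16 receptors and kinases, 3 were called lower and 4 higher in sh1, and 2 lower and 1 higher in sh2, beside the same shares of all rows. Of the 16, 9 were above the median signal, and NOTCH1 and NTRK2 were not among them. The receptors NOTCH1, NTRK2 and ROR2 and the exchange factor VAV2 were higher in sh1 (0.61, 0.90, 1.39 and 0.65) and the kinase ABL1 lower (-0.51, a call lost in 7 of the 9 fits that left out an array, with those of NOTCH1 and VAV2 lost in 3). ENG, endoglin, was higher in sh2 (0.78, adjusted p = 0.00263). TGFBR1, the type I receptor of TGF-beta, had 9.21, 8.87 and 8.89 in sh1 and 7.35, 7.23 and 7.41 in sh2, against 9.51, 9.61 and 10.04 in the control, lower in both lines and lowest in sh2 (-0.73 and -2.39, adjusted p = 0.00802 and 1.58e-06). TRAF1, a TNF receptor adaptor, changed by -1.16 and -1.20 (adjusted p = 0.000889 and 0.000845), and TMOD1, a cap of actin filament ends, by -1.58 and -1.38 (adjusted p = 0.000462 and 0.00139).

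The genes that rose in both lines lay outside the neighbours. GDA, guanine deaminase, had 9.62, 9.46 and 9.74 in sh1 and 8.89, 9.19 and 9.0 in sh2, against 8.07, 8.04 and 8.23 in the control (1.49 and 0.91, adjusted p = 1.36e-05 and 0.000664). PSAT1, the serine synthesis aminotransferase, had 15.26, 15.56 and 15.13 in sh1 and 15.17, 15.24 and 15.18 in sh2, against 14.3, 14.42 and 14.52 in the control (0.90 and 0.78, adjusted p = 0.000725 and 0.00231). The complement component C5 changed by 1.24 and 1.36 (adjusted p = 0.00453 and 0.00304), from a control mean of 4.67, and the nuclear receptor NR6A1 by 1.07 and 0.85 (adjusted p = 0.00373 and 0.016, the sh2 call lost in 4 of the 9 fits that left out an array). Of 15 measured metabolic genes of the long arm, 3 were called higher and 1 lower in sh1, with 3 higher and 0 lower in sh2. Over all rows, 9.76% were called higher and 9.0% lower in sh1, and 8.33% and 7.98% in sh2. Among rows above the median signal, as 10 of the 15 were, the shares were 15.7% and 14.3%, and 13.6% and 12.9%. Of 15 genes on a list of long-arm mitochondrial genes, AGPAT2 and ALDH1A1 rose in sh1 and 0 were called in sh2. AGPAT2 is known as an acyltransferase of the endoplasmic reticulum and ALDH1A1 as a cytosolic enzyme.

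Several long-arm genes changed most in 1 line. ALDH1A1, a retinal dehydrogenase, had 7.54, 8.29 and 7.88 in sh1 and 4.07, 5.02 and 4.97 in sh2, against 4.20, 4.40 and 3.27 in the control, so that only the sh1 arrays were clear of the others (3.95, adjusted p = 7.03e-06, and 0.73, adjusted p = 0.167 in sh2). The control mean of 3.96 was under the lower quartile, so the size of that difference is uncertain. The cathepsin CTSV rose by 2.21 in sh1 (adjusted p = 3.06e-06) and differed by 0.17 in sh2 (adjusted p = 0.568). In sh2, CORO2A, a coronin, rose by 1.82, the lipid exporter ABCA1 by 1.60 and RALGDS, an exchange factor for RAL, by 1.47 (adjusted p = 0.00023, 0.000276 and 0.000154). MAMDC2 had 3.26, 3.30 and 3.47 in sh2, under the lower quartile, against 6.85, 6.86 and 6.81 in the control (-3.50, adjusted p = 2.02e-08). In sh1 it had 6.17, 6.21 and 6.56, also called lower (-0.53, adjusted p = 0.0187), a call lost in 4 of the 9 fits that left out an array. SLC2A8, a glucose transporter, changed by -3.42 in sh2 and -1.24 in sh1 (adjusted p = 3.51e-05 and 0.0237, the sh1 call lost in 4 of the 9 fits that left out an array). RASEF, a RAB family GTPase, rose by 1.27 in sh1 and fell by 1.97 in sh2 (adjusted p = 0.00627 and 0.000414).

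Over all 822 rows of the chromosome, 120 were called in sh1 (70 lower and 50 higher) and 117 in sh2 (68 lower and 49 higher). These are 14.6% and 14.2% of the rows, against 18.8% and 16.3% of the whole table, and 30.0% and 26.5% of its rows above the median. Among the named rows above the median, 47 were lower and 33 higher in sh1, and the neighbours made up 23 of the 47. In sh2 the numbers were 51 lower and 34 higher, with 21 of the 51 among the neighbours. STOML2 is counted in each of these totals.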

How the data were processed

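Total RNA (100 ng per sample, per the labels' protocols) was labelled with biotin and hybridised to 1-colour whole-transcript arrays. The authors deposited a table of values taken to be log2 signals from their range (2.03 to 18.57) and their near-identical array distributions. They came from Transcriptome Analysis Console, per the submitters' processing notes. Which version and settings were used, and whether probes were detected, is not given in the sources used here. No further normalization was applied. Rows were named by the platform annotation through Entrez identifiers, and order, arm and distance came from RefSeq's GRCh38.p14. No source used here names the build behind the row identifiers.

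Differences were fitted with limma 3.58.1 in R 4.3.3, in 1 model over the 9 arrays and all 21448 rows, with Benjamini-Hochberg adjustment across the whole table for each comparison. Rows with an adjusted p below 0.05 were called. SE denotes the standard error from that model. For a gene with several rows the brightest stood for it in the lists. Simulated data in which 200 rows had been changed were used to test the fit. The main fit did not pair the samples by array number (2 of 9 correlations of same-numbered arrays were over 0.1, range -0.04 to 0.18). The highest correlations, 0.18, 0.12 and 0.09, were those of the arrays numbered 1, and whether these arrays share a step was not tested. Precision is limited by how few arrays there are, and 0 columns of per-sample values were left unmapped.

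Named genes were STOML2, the 5 nearest neighbours on each side, the 6 neighbours with the largest smaller change in both lines, the neighbours positive in a line, the 5 up and 5 down of the rest called in both lines, the 3 up and 3 down of each comparison, rows called in opposite directions and up to 4 members of each of 13 lists. For this choice of names, the rest also held rows at or below the median signal, such as TNC, PAPPA and PRSS3. Genes at the edges of a set (such as KIF24, TRMT10B, SLC25A51, MTAP and CDKN2A) and other members of the lists (NOTCH1, VAV2, ABL1 and ENG among them) were named after their values were seen. The members and lists were chosen with earlier results of these data known. Alternatives covered scaling, the filter on low signals, the prior, the samples fitted, a block by array number, the threshold, the number of neighbours, the signal cut and leaving out each array.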

Additional observations from a re-analysis of the deposited data

Results flagged for a closer look

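The lines differed from each other (sh2 minus sh1, limma, adjusted p under 0.05) at 29 of the genes named here or ranked by the same rule. On the short arm the difference was -0.59 for STOML2, -0.85 for PIGO, 0.60 for ATOSB, 1.11 for GNE and -0.46 for UBE2R2. Elsewhere on the short arm it was -1.34 for DOCK8, 2.25 for PRSS3, -0.45 for DCAF10, 1.02 for PLIN2, -0.55 for KIF24, -0.76 for CNTFR and 0.54 for AK3. Among long-arm genes that were higher in sh2 than in sh1 it was 1.57 for CORO2A, 1.02 for ABCA1, 1.24 for RALGDS, 1.64 for EPB41L4B, 1.13 for the brightest row of PALM2AKAP2, 0.68 for ENG and 0.69 for CERCAM. Among those lower in sh2 it was -3.22 for ALDH1A1, -3.25 for RASEF, -2.97 for MAMDC2, -2.19 for SLC2A8, -2.04 for CTSV, -1.66 for TGFBR1, -0.87 for ROR2, -0.79 for NTRK2, -0.68 for COL5A1 and -0.58 for GDA. Those of STOML2 and UBE2R2 were lost when any of 8 arrays was left out, those of COL5A1 and KIF24 when any of 6 was, and that of CERCAM when any of 5 was. Those of DCAF10 and AK3 were lost in 4 of the 9 fits that left out an array, and those of ATOSB, GDA and ROR2 in 3.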

How the results depend on the processing

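Of 195 values recomputed under an alternative, 154 kept their direction and side of the threshold or moved little, 32 moved, 9 lost the call and 0 were scored as reversed. Those that moved include the median of the neighbours minus that of the rest in sh2 minus sh1. It lay near 0 and changed sign in some settings (from -0.09 to 0.035, 0.015, 0.038 and 0.013). At an adjusted p under 0.01, chromosome 9 had 64 calls in sh1, 55 in sh2 and 32 in sh2 minus sh1, and the neighbours 10 in sh1 and 2 in sh2 minus sh1. With the 20 nearest rows, 15 neighbours were called in sh1 and 10 in sh2, and the median of the neighbours minus that of the rest was -0.63 in sh1, -0.56 in sh2 and 0.035 in sh2 minus sh1, where 40 rows gave -0.56, -0.475 and -0.09. With the 80 nearest, 35 were called in sh2 (30 lower and 5 higher), 29 in sh1 (26 lower and 3 higher), and the medians were -0.345, -0.29 and 0.015. With rows above the lower quartile they were -0.44, -0.32 and 0.038, and 7 neighbours were called in sh2 minus sh1. That cut had 1 neighbour called higher in each line, beside 20 lower in sh1 and 14 lower in sh2. Fewer or more rows enter by construction in these settings. Among the 40 neighbours, 1 was called higher in sh2 with the lower quartile left out of the fit (22 lower). With a trend in the prior 1 was also called higher in sh2 (24 lower). The STOML2 difference of sh2 minus sh1 stayed at -0.59 with those groups fitted alone but lost its call (adjusted p = 0.0852). The cause was not tested. With 1 array left out, calls on chromosome 9 ranged over 81 to 123 in sh1, 67 to 119 in sh2 (67 without control array 1, 72 without sh2 array 2) and 46 to 69 in sh2 minus sh1 (46 without sh1 array 1, 47 without sh1 array 3). Neighbours called ranged over 14 to 23 in sh1, 16 to 21 in sh2 and 2 to 4 in sh2 minus sh1 (2 without sh1 array 1, sh2 array 1 or sh2 array 3). STOML2 ranged over -5.40 to -5.28, -6.07 to -5.75 and -0.72 to -0.40, the last with its call lost in 8 of 9 fits. The median of the neighbours minus that of the rest ranged over -0.62 to -0.54, -0.53 to -0.46 and -0.091 to 0.013. With array number as a replicate block, 21 neighbours were called in sh1, 20 in sh2 and 3 in sh2 minus sh1, and STOML2 differed by -5.35, -5.94 and -0.59 (adjusted p = 1.78e-07, 8.21e-08 and 0.0314). Without detection calls, signals near the lower quartile cannot be told from background, and 3 arrays of 1 clone a line limit every test.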

Other observations

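PALM2AKAP2 had 3 rows on the long arm. The brightest had 8.58, 8.40 and 8.05 in sh1 and 9.56, 9.40 and 9.45 in sh2, against 10.08, 10.24 and 10.15 in the control (-1.81 and -0.69). The other rows, with control means of 6.81 and 5.33, differed by -1.57 and -1.45, and by -1.0 and -1.04. The 3 rows fell in both lines, and the sh2 minus sh1 difference was 1.13 in the brightest (adjusted p = 0.00039) and 0.12 and -0.05 in the others (adjusted p = 0.846 and 0.912).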
